A study of Mus musculus with 8 samples.

Results

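Basophils, mast cells and eosinophils are rare granulocytes, and 9 genes that mark them were followed here in dendritic cells sorted from mouse bone marrow and spleen. The 9 genes were Mcpt8, Prss34, Cd200r3, Prg2, Epx, Fcer1a, Cpa3, Hdc and Gata2, chosen by gene symbol, and each was read from its only probe set that the array's 2016 annotation pairs with exactly 1 gene. They are 9 of 19938 genes with such a probe set. The tested samples were 4 arrays of bone marrow myeloid dendritic cells, set against 4 arrays of spleen classical dendritic cells, with 1 array of each tissue from each of 4 mice. All mice were 8 weeks old and of the genotype CX3CR1-gfp/+, in which 1 copy of Cx3cr1 carries a green fluorescent protein gene, so both tissues share this allele. Marrow came from femur and tibia, the sorted cells were collected straight into lysis buffer, and targets were amplified from very small amounts of total RNA. The labels give no surface markers for the sorts, and 1 of them calls the marrow cells simply myeloid cells. The question asked of the arrays was which of these granulocyte types can be seen in the sorted populations, and in which replicates.

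Basophils and mast cells both carry the high-affinity receptor for IgE, release histamine when that receptor is crosslinked, and depend on the transcription factor GATA2. They differ in their granule proteases: Mcpt8 and Prss34 are known from mouse basophils, whereas the chymases and tryptases of the Cma, Mcpt and Tps families are known from tissue mast cells. Eosinophils store cationic granule proteins, among them major basic protein, encoded by Prg2, and eosinophil peroxidase, encoded by Epx. All 3 cell types arise in the bone marrow, and transcripts of eosinophil granule proteins are made mainly while the cells develop there.

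The arrays were of comparable brightness, with median intensities between 125.1 and 135.0. Of 6 dendritic cell genes, Zbtb46, Flt3 and Itgax were lower in bone marrow (limma adjusted p of 0.0024 or less), beside 9.20% of all genes. The class II genes H2-Ab1 and Cd74 were bright in both sorts, with no array under 12348. All 12 neutrophil genes followed here were higher in bone marrow, beside 9.26% of all genes. The summed intensity of the 12 lay between 21580 and 29594 in bone marrow, against 1613 to 1913 in spleen. Platelet genes split within both groups, with Ppbp at 1233 in bone marrow replicate 3 and at 1280 in spleen replicate 4, and between 99.6 and 160 on the other 6 arrays. No background value or detection call accompanies the intensities. Intensity of 23 genes of non-immune tissues, such as Alb and Neurod1, ranged from 11.4 to 171, so a dim probe set by itself does not show that a gene is expressed. These 23 genes gave a rough limit instead: on no bone marrow array did any of them exceed its own spleen mean by more than 0.32 on the log2 scale (1.25-fold). This limit was chosen after the values were seen, and it describes the arrays without being a test.

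The basophil proteases stood out in bone marrow. Mcpt8, mast cell protease 8, a serine protease of basophil granules despite its name, had intensities of 207, 149, 341 and 490 in bone marrow replicates 1 to 4, against 55.3, 61.7, 48.2 and 50.7 in spleen replicates 1 to 4. The lowest marrow array was well above the highest spleen array. Mcpt8 was 4.99-fold higher in bone marrow (2.32 ± 0.28 SE in log2, with 4 arrays in each tissue, and a limma adjusted p of 5.0e-05). Prss34, the basophil protease also called mMCP-11, had 389, 208, 433 and 713 in bone marrow and 103, 116, 106 and 146 in spleen. It was 3.42-fold higher (1.77 ± 0.27, limma adjusted p = 4.2e-04), again without overlap. In bulk RNA of a sorted population, more cells of a type cannot be told apart from more RNA per cell.

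Cd200r3, an activating receptor of the CD200 receptor family that marks basophils and mast cells, did not follow the proteases. Its intensities were 34.1, 26.2, 30.9 and 27.2 in bone marrow and 26.5, 30.9, 29.2 and 30.6 in spleen, and the groups overlapped throughout. The log2 difference was 0.01 ± 0.10 SE (limma adjusted p = 0.98), with a 95% interval from -0.20 to 0.22. Of the 9 genes, this one alone did not pass the threshold of 0.05. The other 2 genes of the basophil list, Cyp11a1 and Grm6, had log2 differences of 0.02 and 0.05 and did not pass either (limma adjusted p = 0.95 and 0.79).

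The stretches before the start sites of both proteases, with those of Epx and Cpa3, are shown because these 4 genes were all higher in marrow but by different amounts. They are the 250 bases before the start in RefSeq on build GRCm38.p6, for Mcpt8 at chr14:56085198-56085447 on the minus strand, Prss34 at chr17:25298144-25298393 on the plus strand, Epx at chr11:87875537-87875786 on the minus strand and Cpa3 at chr3:20242182-20242431 on the minus strand, each read 5′ to 3′. Capitals mark every match, on either strand, to the GATA motif (AGATAA as well as AGATAG, likewise TGATAA as well as TGATAG), to the C/EBP motif (TTGCNNAA) or to the RUNX motif (TGTGGT).
Mcpt8: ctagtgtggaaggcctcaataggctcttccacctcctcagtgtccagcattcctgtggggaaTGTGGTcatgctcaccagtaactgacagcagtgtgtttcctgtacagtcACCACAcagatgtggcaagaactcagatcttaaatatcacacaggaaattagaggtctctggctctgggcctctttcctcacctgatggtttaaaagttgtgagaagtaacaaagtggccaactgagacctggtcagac
Prss34: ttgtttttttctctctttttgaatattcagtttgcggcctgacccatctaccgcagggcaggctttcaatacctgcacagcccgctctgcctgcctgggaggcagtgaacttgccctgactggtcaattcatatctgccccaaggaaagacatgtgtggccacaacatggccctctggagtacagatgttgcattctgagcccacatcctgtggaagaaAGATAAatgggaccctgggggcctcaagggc
Epx: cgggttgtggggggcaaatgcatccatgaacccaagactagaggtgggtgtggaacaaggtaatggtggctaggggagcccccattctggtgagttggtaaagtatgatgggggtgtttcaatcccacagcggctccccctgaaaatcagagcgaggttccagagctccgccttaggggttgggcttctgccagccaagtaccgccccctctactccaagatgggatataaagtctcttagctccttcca
Cpa3: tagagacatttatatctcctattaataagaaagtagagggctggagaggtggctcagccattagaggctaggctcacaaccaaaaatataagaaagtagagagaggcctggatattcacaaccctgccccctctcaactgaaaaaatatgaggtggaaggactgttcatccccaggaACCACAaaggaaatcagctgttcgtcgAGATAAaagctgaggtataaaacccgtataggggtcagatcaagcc

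The Prss34 and Cpa3 stretches hold AGATAA close to the start, with its first base 31 and 46 bases before it. The Cpa3 stretch also holds the RUNX letters, 73 bases before the start. The Mcpt8 stretch holds the RUNX letters at 188 and 139 bases before the start and no GATA letters, and the Epx stretch holds none of the 3 motifs. RefSeq promoter entries were matched for 8 of the 9 genes (9 stretches, since Gata2 has 2 starts), and 5 of these 9 stretches hold a GATA match, those of Cd200r3, Cpa3, Fcer1a, Hdc and Prss34. A C/EBP match is held by 2 of the 9 stretches and a RUNX match by 3. Over all 32851 stretches of the same length, 26.5% hold a GATA match, 9.6% a C/EBP match and 14.0% a RUNX match. The Cd200r3 stretch holds 3 GATA matches, and its gene gave no detectable difference between the tissues.

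Eosinophil granule genes were also higher in bone marrow. Prg2, which encodes major basic protein, had intensities of 733, 459, 1607 and 751 in bone marrow, against 128, 122, 120 and 106 in spleen. The groups lay far apart, and Prg2 showed the largest difference of the 9 genes, 6.71-fold (2.75 ± 0.27 SE in log2, limma adjusted p = 8.9e-06). Epx, eosinophil peroxidase, had 125, 75.9, 317 and 210 in bone marrow and 58.4, 57.0, 51.9 and 53.2 in spleen. Every marrow array exceeded every spleen array, although replicate 2 did so narrowly, and Epx was 2.88-fold higher (1.53 ± 0.32, limma adjusted p = 0.0041).

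The rest of the eosinophil list gave a mixed picture. Of its 8 measured genes, 4 passed as higher and 0 as lower, beside 9.26% and 9.20% of all genes. Ear6, of the eosinophil-associated ribonuclease family, was 3.15-fold higher (1.66 ± 0.11 on the log2 scale, limma adjusted p = 3.4e-07), at 293 to 366 in bone marrow and 91.6 to 125 in spleen; this family holds near-identical copies, some known from other myeloid cells, so the signal cannot be assigned to Ear6 with certainty. Alox15, a lipoxygenase of eosinophils and some macrophages, was 1.99-fold higher (0.99 ± 0.14, limma adjusted p = 2.5e-04). Prg3, a close relative of Prg2 and its next protein-coding neighbour on chromosome 2, had 160, 109, 269 and 191 in bone marrow and 109, 103, 116 and 134 in spleen (0.59 ± 0.21, limma adjusted p = 0.072). Among the surface receptors, Siglecf, a lectin of mature eosinophils, and Il5ra, the interleukin-5 receptor chain on which eosinophils depend, had log2 differences of 0.10 ± 0.13 and -0.28 ± 0.10 SE (limma adjusted p = 0.75 and 0.077).

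Ccr3, the eotaxin receptor of eosinophils, had 670 in bone marrow replicate 2 but 179, 180 and 152 in replicates 1, 3 and 4, against 118, 100, 116 and 137 in spleen. Its marrow values all lay above the spleen values, yet the single high array widened the spread, and the difference did not pass the threshold (1.03 ± 0.36 SE on the log2 scale, limma adjusted p = 0.068). Without bone marrow replicate 2 the log2 difference was 0.54 and passed (limma adjusted p = 0.0056). Blocking on the mouse also brought Ccr3 and Prg3 past the threshold (limma adjusted p = 0.046 and 0.018 in the fit with a replicate block).

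**Figure D1:**
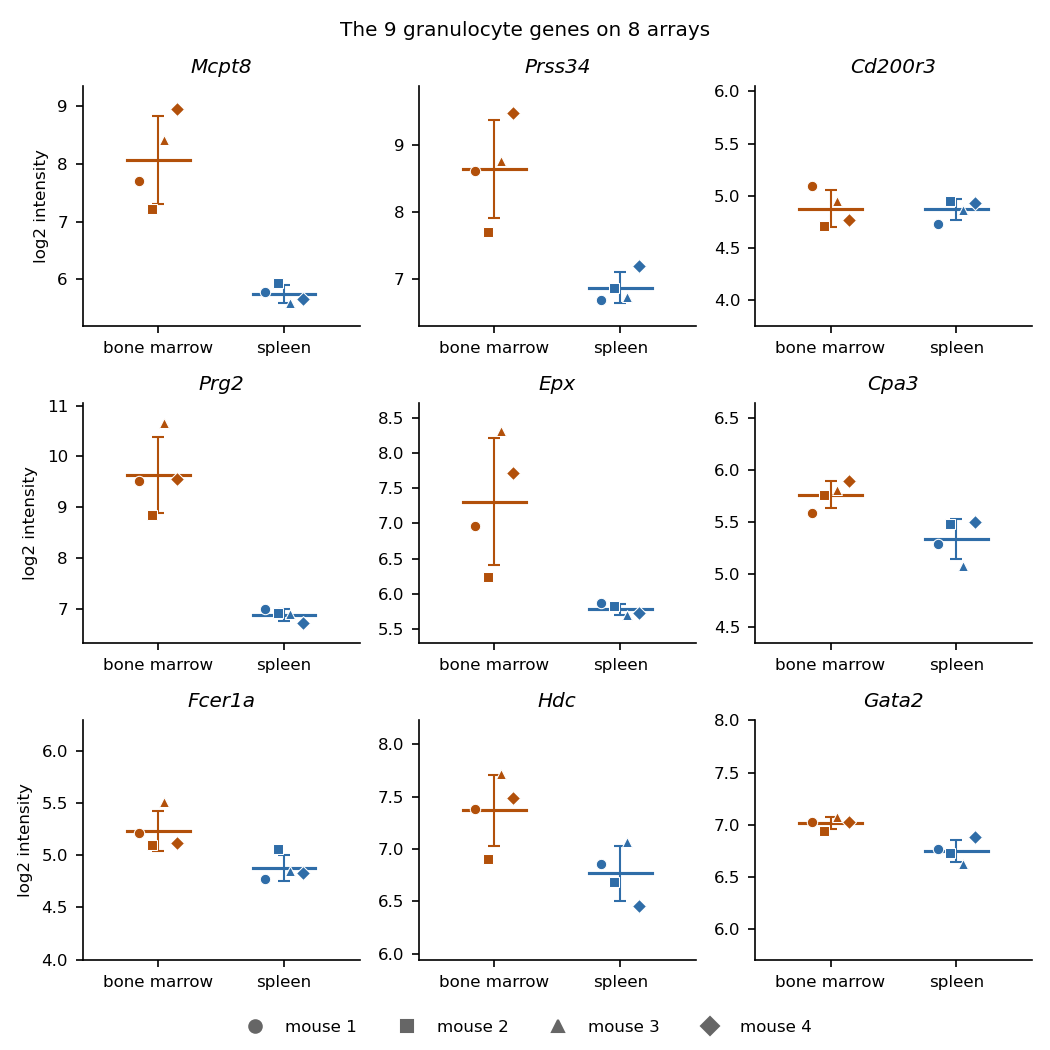
Log2 intensity of the 9 genes (y axis, a separate range for each gene) in 4 bone marrow arrays (left, brown) and 4 spleen arrays (right, blue); symbols stand for the mouse, lines for the mean and bars for the SD. Mcpt8, Prss34, Prg2 and Epx separate the tissues by the largest differences and vary most within bone marrow. Cpa3, Fcer1a and Gata2 also separate them, by less. Hdc overlaps, and so does Cd200r3, with a log2 difference of 0.01.

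Genes shared by basophils and mast cells showed small differences. Cpa3, carboxypeptidase A3 of mast cell and basophil granules, had 48.1, 54.3, 55.9 and 59.5 in bone marrow and 39.0, 44.6, 33.9 and 45.3 in spleen. It was 1.34-fold higher (0.43 ± 0.11 SE in log2, limma adjusted p = 0.012), with no overlap. Fcer1a, the IgE-binding chain of the high-affinity receptor, had 37.1, 34.2, 45.6 and 34.6 in bone marrow and 27.4, 33.3, 28.8 and 28.5 in spleen. Its groups were separated by less than 1 intensity unit, and it was 1.28-fold higher (0.36 ± 0.10, limma adjusted p = 0.031). Blocking on the mouse, Fcer1a no longer passed (limma adjusted p = 0.0505). Nor did it when marrow array 1 or 3, or spleen array 1, 3 or 4, was left out (limma adjusted p between 0.060 and 0.089).

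Hdc, histidine decarboxylase, the enzyme that makes histamine, had 167, 120, 210 and 179 in bone marrow and 116, 103, 134 and 87.7 in spleen. It was 1.52-fold higher (0.61 ± 0.16 SE on the log2 scale, limma adjusted p = 0.020), and bone marrow replicate 2 lay below spleen replicate 3. Leaving out marrow array 3 or 4, or spleen array 2 or 4, ended the Hdc call (limma adjusted p between 0.053 and 0.065). Gata2, the transcription factor needed by mast cells and basophils and also by blood stem and progenitor cells, had 130, 123, 135 and 130 in bone marrow and 109, 106, 98.9 and 118 in spleen. The arrays of each tissue were close together and did not overlap, so a difference of only 1.20-fold passed (0.26 ± 0.08, limma adjusted p = 0.034). Blocking on the mouse, Gata2 did not pass (limma adjusted p = 0.086). Nor did it when marrow array 1, 3 or 4, or spleen array 1, 2 or 3, was left out (limma adjusted p between 0.069 and 0.097).

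Across the wider list of genes shared by basophils and mast cells, 5 of 9 measured passed as higher and 0 as lower, beside 9.26% and 9.20% of all genes. The fifth was Il3ra, the interleukin-3 receptor alpha chain, a receptor that dendritic and progenitor cells also use, which was 1.33-fold higher (limma adjusted p = 0.0018). Ms4a2, the beta chain of the IgE receptor, was dim on all arrays, at 21.3 to 26.2 in bone marrow and 21.0 to 23.3 in spleen (log2 difference 0.05 ± 0.08 SE, limma adjusted p = 0.83). Neither the vesicular monoamine transporter Slc18a2 nor the cytokines Il4 and Il13 passed (limma adjusted p = 0.15 or above). Blocking on the mouse gave 3 in place of 5, and leaving out marrow array 3 gave 2.

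No chymase or tryptase of the mast cell list passed as higher with Mcpt8. Of 9 measured mast cell genes (the proteases Cma1, Mcpt1, Mcpt2, Mcpt4, Tpsb2, Tpsab1 and Tpsg1 and the receptors Mrgprb1 and Mrgprb2), none was higher and none lower, at limma adjusted p of 0.40 or above and with no unadjusted p under 0.05. Over all genes, 9.26% passed as higher and 9.20% as lower, so none among 9 is near that share. The log2 differences of the 9 mast cell genes lay between -0.14 (Mcpt2) and 0.11 (Tpsg1), and their 95% intervals between -0.37 and 0.32. Their summed intensity was 433 to 497 in bone marrow and 427 to 471 in spleen, with both ranges overlapping. In the RefSeq gene order Mcpt8 lies on chromosome 14 between the mast cell protease gene Mcpt4 and Ctsg, which encodes cathepsin G of neutrophils. Of these neighbours, Mcpt4 had a log2 difference of 0.07 ± 0.08 SE and did not pass (limma adjusted p = 0.73), and Ctsg was 3.81-fold higher in bone marrow (1.93 ± 0.13, limma adjusted p = 2.4e-07). Prss34 likewise lies on chromosome 17 next to a cluster that holds the tryptases Tpsb2 and Tpsg1, which had log2 differences of -0.002 and 0.11.

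**Figure D2:**
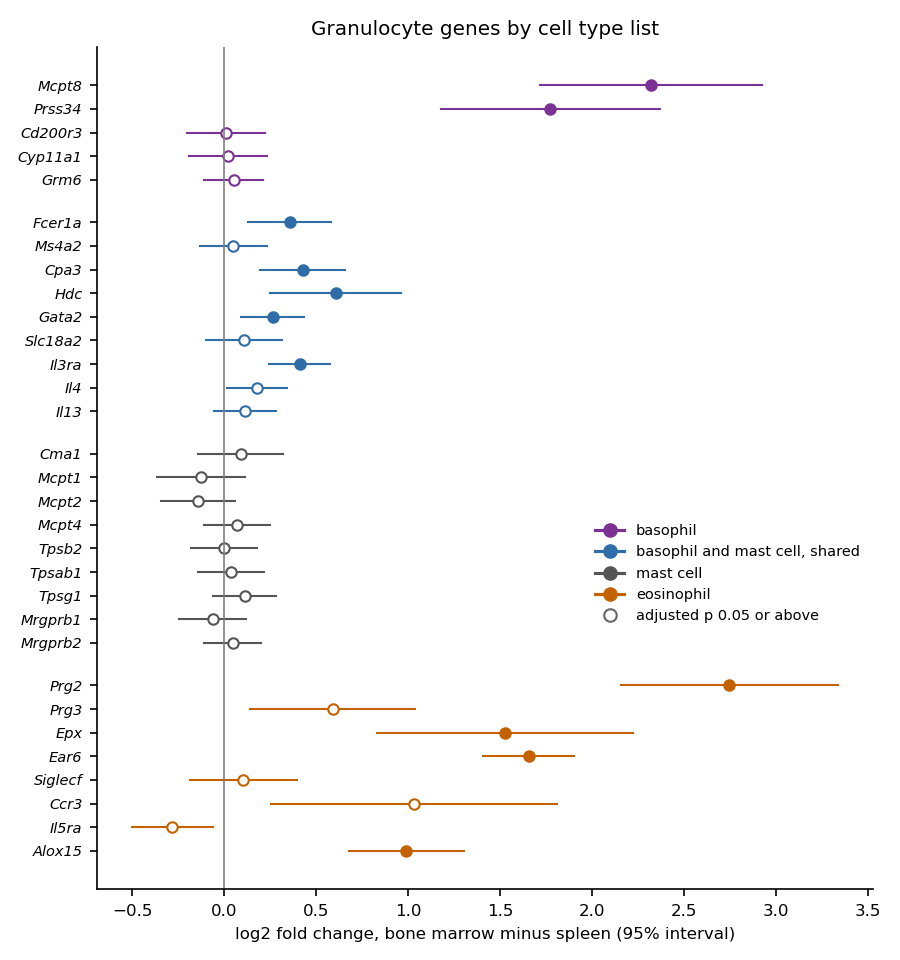
Log2 fold change, bone marrow minus spleen, with its 95% interval (x axis) for the measured genes of 4 cell type lists (y axis, by colour); filled points passed a limma adjusted p of 0.05 and open points did not. Mcpt8 and Prss34 stand apart in the basophil list and Prg2, Epx, Ear6 and Alox15 in the eosinophil list, while all 9 mast cell genes lie between -0.14 and 0.11.

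Of the 9 genes, 8 passed as higher in bone marrow and none as lower, against 9.26% of all genes passing as higher and 9.20% as lower (18.5% in either direction). More than 2-fold higher were 4 of 9 (Mcpt8, Prss34, Prg2 and Epx), against 2.02% of all genes. In 7 of 9 all marrow values exceeded all spleen values, against 10.4% of all genes, and in none did all lie below, against 10.2%. The median log2 difference of the 9 was 0.61, beside -0.01 over all genes. The 9 genes were chosen with earlier results of these data known, so these shares are a description and not a test. Blocking on the mouse gave 6 in place of 8, and leaving out marrow array 3 gave 5. Mcpt8, Prss34 and Prg2 passed under all 16 alternative settings, and Cpa3 and Epx under all 15 in which they were measured. Matched by mouse, the marrow array exceeded the spleen array in 4 of 4 mice for each of these 5 genes, and also for Fcer1a, Hdc and Gata2. On the log2 scale the excess was 1.91 to 3.74 for Prg2, 1.27 to 3.27 for Mcpt8 and 0.84 to 2.29 for Prss34. It was 0.41 to 2.61 for Epx and 0.28 to 0.72 for Cpa3. Genes that were not called, such as Tpsg1 and Gfi1b, also had 4 of 4, and the share of all genes with 4 of 4 was not counted. Neutrophil genes were higher on the same marrow arrays, and their part in these differences was not tested.

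The 4 large differences varied widely between marrow replicates. The SD of log2 intensity among the 4 bone marrow arrays was 0.76 for Mcpt8, 0.73 for Prss34, 0.75 for Prg2 and 0.90 for Epx, beside a median of 0.12 over all genes. Only 0.16%, 0.19%, 0.18% and 0.12% of all genes varied more between marrow arrays than Mcpt8, Prss34, Prg2 and Epx. In spleen the SD of the same 4 genes ran from 0.08 for Epx to 0.23 for Prss34. Cpa3 had an SD of 0.13 in bone marrow and 0.20 in spleen, and Gata2 of 0.06 in bone marrow and 0.10 in spleen.

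The replicates in which the genes were highest differed between the basophil and the eosinophil pair. Both basophil proteases were highest in bone marrow replicate 4, at 0.87 and 0.84 above their own marrow mean on the log2 scale. The neutrophil genes Prtn3, Retnlg and Ctsg were also highest there (0.41, 0.32 and 0.29) and lowest in replicate 2 (-0.34, -0.42 and -0.27). Not all neutrophil genes peaked there: Elane was highest in replicate 1 and Camp in replicate 3. Both eosinophil granule genes were highest in replicate 3, where Prg2 and Epx lay 1.01 and 1.00 above their marrow mean. All 4 basophil and eosinophil genes were lowest in replicate 2, by -0.85 for Mcpt8, -0.93 for Prss34, -0.80 for Prg2 and -1.06 for Epx. Prg3, Hdc, Fcer1a and Gata2 were also highest in replicate 3 and lowest in replicate 2. So was the summed intensity of the 23 non-immune genes, at 1830 in replicate 3 and 1661 in replicate 2. For small swings such as that of Gata2, this order is therefore not particular to granulocyte genes. The neutrophil genes Camp and S100a8 had the same order over wider swings, at 0.26 and 0.31 in replicate 3 and -0.44 and -0.39 in replicate 2. Ccr3 ran against this order, at 1.49 above its marrow mean in replicate 2. These orders describe 4 arrays and carry no test.

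Measured against the limit of 0.32 from genes of non-immune tissues, Mcpt8, Prss34, Prg2 and Epx exceeded their spleen mean by more than this on all 4 marrow arrays. The smallest such excess was 0.46, for Epx in replicate 2, and the largest 3.76, for Prg2 in replicate 3. Cpa3 exceeded the limit on 3 arrays (not replicate 1), Hdc on 3 (not replicate 2) and Fcer1a on 2 (replicates 1 and 3), while Gata2 and Cd200r3 did so on none. Prg3 exceeded it on 3 arrays (not replicate 2). On no spleen array did any of the 9 genes exceed the mean of the other spleen arrays by more than the non-immune genes did there, a limit of 0.46. By this description the basophil proteases Mcpt8 and Prss34 and the eosinophil granule genes Prg2 and Epx were visible in all 4 marrow replicates. Epx in replicate 2 was marginal, since its excess of 0.46 was, as rounded, the same as the limit among spleen arrays. Il3ra, Fcer1g and Lat2, which other cells also use, exceeded 0.32 on all 4 marrow arrays too. So did every neutrophil gene followed here, among them Ctsg (1.66 to 2.22) and Ngp (4.92 to 5.17), and the erythroid gene Car1 (1.58 to 2.43). Neither passing the limit nor a large excess is therefore particular to basophil and eosinophil genes. The share of all genes that exceed it was not counted. Of the 9 mast cell list genes, none exceeded the limit in any marrow replicate apart from Cma1 in replicate 3 (0.37). In the spleen replicates none of the 9 genes stood out on any single array.

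**Figure D3:**
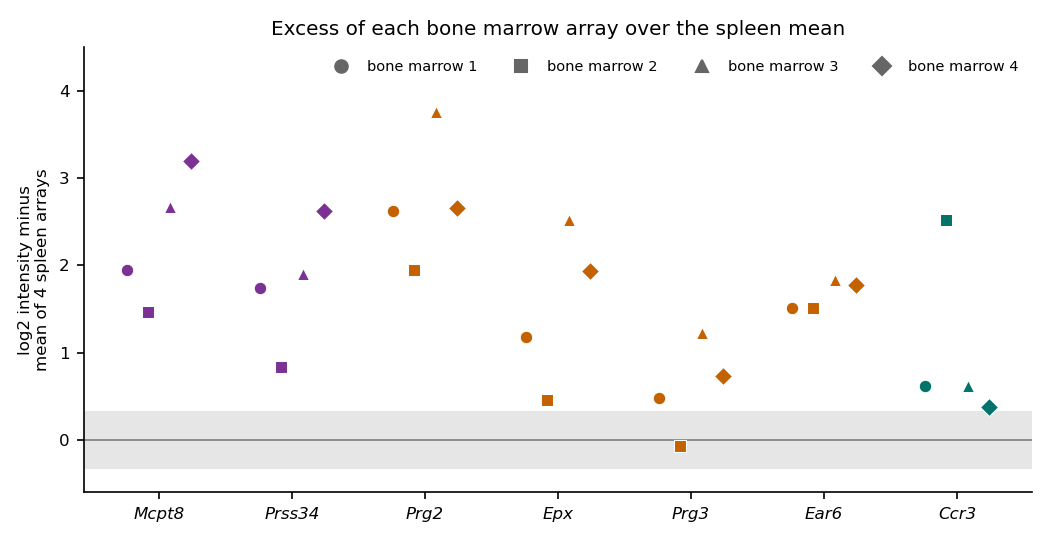
Log2 intensity of each bone marrow array minus the mean of the 4 spleen arrays (y axis) for 7 genes (x axis; purple basophil, orange eosinophil granule, teal Ccr3); symbols are bone marrow replicates and the grey band spans 0.32 on either side of 0. Mcpt8 and Prss34 peak in replicate 4, Prg2, Epx and Prg3 in replicate 3, and Ccr3 in replicate 2.

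Genes of other cell types also varied across the same marrow arrays. The summed intensity of the 12 neutrophil genes was 27733, 21580, 29594 and 28276 in bone marrow replicates 1 to 4. It was lowest in replicate 2 like the 4 granulocyte genes and highest in replicate 3 like Prg2 and Epx, though over a narrower range. The 6 measured erythroid genes summed to 1415, 1419, 1274 and 982 in bone marrow and to 446 to 641 in spleen, lowest in replicate 4, where the basophil proteases were highest. The 4 measured platelet genes summed to 931, 1938, 2627 and 676 in bone marrow and to 421 to 2212 in spleen, highest in replicate 3. Within that sum Ppbp was highest in replicate 3 (1233), and Pf4, the only called platelet gene, in replicate 2 (1530, against 989 in replicate 3), where Prg2 and Epx were lowest. Of 7 measured early progenitor genes, 1 was higher in bone marrow, Myb (1.34-fold, limma adjusted p = 0.0087), beside 9.26% of all genes. The sum of the 7 was 1485 to 1633 in bone marrow and 1365 to 1445 in spleen. The part of these cell types in the granulocyte signal was not tested.

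**Figure D4:**
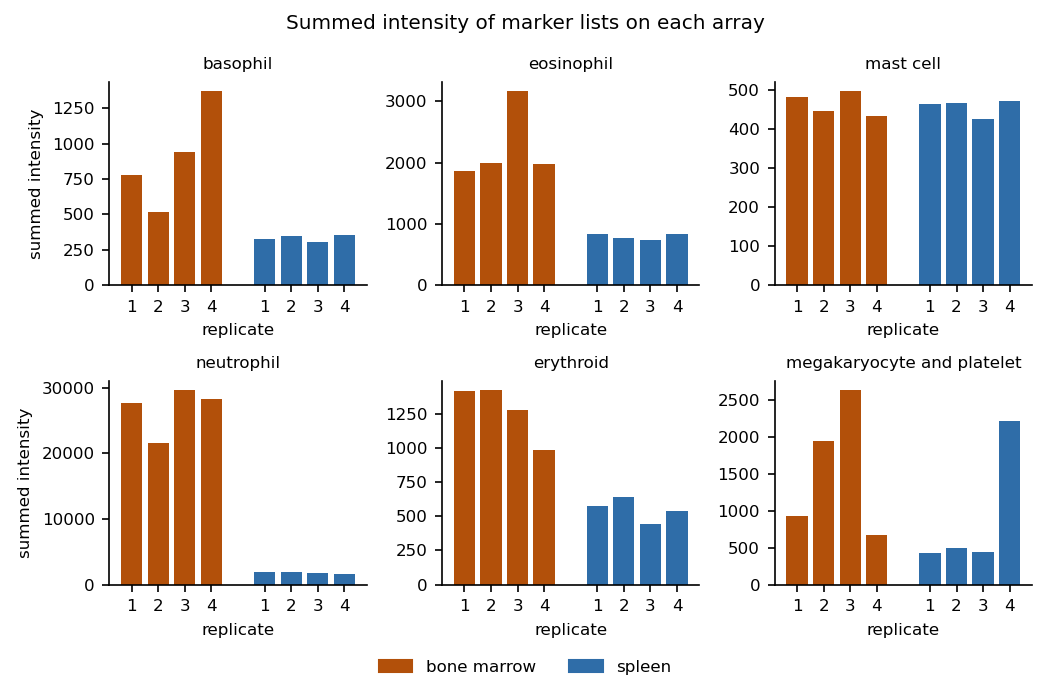
Summed intensity (y axis, from 0, a separate range for each panel) of 6 marker lists on 4 bone marrow arrays (brown) and 4 spleen arrays (blue), by replicate (x axis). The basophil list peaks in bone marrow replicate 4 at 1369, mostly from Mcpt8 (490) and Prss34 (713). The eosinophil list peaks in replicate 3 at 3165, with Prg2 (1607) as its largest part. Its sum in replicate 2, 1992, includes the single high Ccr3 value of 670. The mast cell list stays between 427 and 497 on all 8 arrays.

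The list of IgE receptor chains and their signalling genes moved in both directions. Of 14 measured, 6 passed as higher and 2 as lower, beside 9.26% and 9.20% of all genes. The 6 include the receptor chains Fcer1a and Fcer1g, and blocking on the mouse left 5, without Fcer1a. Fcer1g, the gamma chain that the IgE receptor shares with IgG receptors of many myeloid cells, averaged 9435 in bone marrow and 6191 in spleen (1.52-fold, limma adjusted p = 3.1e-04). The adaptors Lat2 and Gab2 were 1.58-fold and 1.52-fold higher (limma adjusted p = 3.1e-05 and 0.0045), and the phospholipase Plcg1 was lower, at 184 in bone marrow and 325 in spleen (-0.82 ± 0.09 SE on the log2 scale, limma adjusted p = 1.8e-05). Dendritic cells and monocytes use these genes too. The alpha chain, Fcer1a, reached at most 45.6 on any array.

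Of 7 histamine genes, 2 were higher in bone marrow and 1 lower, where 18.5% of all genes passed in either direction. Hnmt, which inactivates histamine, was 1.52-fold higher, like Hdc (limma adjusted p = 0.0089), and Hrh1, the histamine H1 receptor, had a mean of 351 in bone marrow and 531 in spleen (-0.60 ± 0.13 SE on the log2 scale, limma adjusted p = 0.0065). In the CD200 family, 1 of 5 genes was higher and 1 lower, beside 9.26% and 9.20% of all genes. The receptor Cd200r4 was 1.41-fold higher (limma adjusted p = 0.0052), and the ligand Cd200 had a mean of 75.1 in bone marrow and 177 in spleen (-1.24 ± 0.16, limma adjusted p = 8.3e-05). Cd200r3, the basophil and mast cell member, lay between them with no detectable difference.

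Among 17018 other genes, predicted genes and receptor families left out, the 5 whose profile over the 8 arrays came closest to that of Mcpt8 were Prtn3, Prss34, Pde7b, Cxcr2 and Slfn1. Likeness was the root mean square difference of log2 values after removing each gene's own mean, and it was 0.315 for Prtn3, a protease of neutrophil primary granules, and 0.359 for Prss34, the other basophil protease. The 5 closest to Prg2 were Cxcr2, a chemokine receptor of neutrophils (0.345), then Retnlg, S100a9, Fcgr3 and Mcpt8 (0.481). Epx came 70th from Prg2 and 23rd from Mcpt8. All of these genes were higher in marrow, and the 8 arrays share mice and tissues, so the ranks are a description.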

How the data were processed

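RNA of 8 sorted samples was measured on Affymetrix mogene 1.0 ST arrays. The authors' deposited values are linear intensities, 1 per probe set and array, for which the submitters' processing notes name Affymetrix Expression Console 1.4. How background, normalization and probe summarization were handled is not given in the sources used. Of 35556 probe sets, 21789 had exactly 1 symbol in the platform annotation of 2016, and the brightest per gene was kept (19938 genes). Log2 intensities were fitted over all genes with limma 3.58.1 in R 4.3.3 (lmFit, eBayes), bone marrow minus spleen, with Benjamini-Hochberg adjustment over all genes, a threshold of 0.05 and no filter; the code was tested on simulated data. Python 3.11.15 was used for the rest. Levels are geometric means. Arrays limit precision by their number, 4 per group.

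The description labels put arrays of 1 number in 1 mouse. Their deviations from the group means correlated across genes at 0.096, -0.088, -0.178 and -0.054 for mice 1 to 4. The labels name no test, so the fit has no mouse term, and a replicate block (the mouse) was tried as an alternative. The 9 genes and all lists were chosen with earlier results of these data known. Named genes were the 9, up to 4 called members of each list by size of change (or the member with the largest change where none was called), and the 5 genes closest to Mcpt8 and to Prg2; others were chosen after their values were seen. List members with only a shared or no named probe set (among them Ear1, Ear2, Il1rl1 and Mcpt9) were not analysed here. Alternatives were quantile normalization, median centring, leaving out the dimmest 40% of genes, averaging probe sets, an intensity trend, array weights, the replicate block, leaving out each array, and leaving out spleen replicates 3 and 4 together.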

Additional observations from a re-analysis of the deposited data

Results flagged for a closer look

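In 55 genes, the 4 values of each tissue were searched for an array far from the other 3 by Dixon's 95% criterion. These were the 9, the other genes of the granulocyte lists, the leading genes of each other list by size of change, and Ppbp. Of 110 groups of 4, 9 held such an array, where chance gives about 1 in 20. Ppbp was added outside that rule and was flagged in both tissues, so the comparison with chance is only rough. Ccr3 had 670 in bone marrow replicate 2, against 152 to 180 on the other marrow arrays. Ppbp had 1233 in bone marrow replicate 3, against 124 to 160, and 1280 in spleen replicate 4, against 99.6 to 140. Pf4 had 575 in spleen replicate 4, against 65.9 to 90.2. Slc18a2 had 43.3 in spleen replicate 3, against 53.4 to 55.0, and Il4 had 61.3 in spleen replicate 2, against 63.4 to 63.6. Myb had 132 in spleen replicate 1, against 151 to 155, and S100a8 had 117 in spleen replicate 4, against 191 to 202. Tg, a thyroid gene used as a non-immune reference, had 101 in bone marrow replicate 3, against 86.9 to 89.0. None of the 9 granulocyte genes was among them, in either tissue.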

How the results depend on the processing

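Of 480 recounts of genes called higher or lower under the 16 alternatives, 450 stayed within 1.5 times the count reported. Many of these were counts of 0 that stayed 0, such as mast cell genes higher or lower. Direction was compared for the 9 genes and the granulocyte, IgE receptor signalling, histamine and CD200 lists, and no called gene there changed it. Leaving out each array in turn gave 5 to 8 of the 9 granulocyte genes higher, 2 to 5 shared basophil and mast cell genes, 1 to 2 early progenitor genes, 1 to 2 histamine genes, and 1 to 2 non-immune genes lower (Gcg and Tg with all arrays). With the dimmest 40% of genes left out, which removes Cpa3, Fcer1a, Epx and Cd200r3, 5 of 5 granulocyte genes were higher, 3 of 4 shared genes, 1 of 3 histamine genes and 0 of 2 CD200 family genes, and 0 of 6 non-immune genes were lower. Under the replicate block, 3 shared genes were higher and 1 non-immune gene lower. Without spleen replicates 3 and 4 together, 5 granulocyte genes, 2 shared genes and 0 histamine genes were higher and 1 IgE receptor signalling gene was lower. The replicate block changed no call among the 9 other than those of Fcer1a and Gata2. The cause of the other changes was not tested. With no background value, differences of dim probe sets are bounded only by the spread between arrays.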
